A study of Sus scrofa with 19 samples.

Results

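The effect of fish oil in the sow's diet was examined in adrenal glands of piglets whose mothers had received bacterial lipopolysaccharide (LPS) late in gestation. Of the 19 arrays, 7 belong to this comparison: those of the 4 male piglets labelled Fish Oil and LPS (piglets 10, 19, 20 and 24) and of the 3 labelled Control and LPS (piglets 6, 16 and 17). Their membership follows the labelled maternal diet and maternal challenge alone. The comparison itself was chosen with earlier results of these data known. The sows ate the experimental diets from gestation day 75 and were challenged on gestation day 112, per the labels' protocols. Piglets were weaned at 21 days, received LPS themselves at 28 days and were killed 2 hours later, 1 male piglet from each sow. Both groups therefore carried 2 exposures, LPS of the mother before birth and LPS of the piglet after weaning, and differed in the maternal diet. The 7 piglets of sows given saline that are set beside them, 4 on fish oil (9, 11, 13 and 18) and 3 on the control diet (8, 14 and 21), also received LPS at 28 days. Every piglet on the arrays did, so no value shows an unchallenged gland, and a difference after maternal LPS cannot be split into a resting part and a response. The remaining arrays are of piglets whose sows were labelled Microalgae, after maternal saline or LPS. They enter the model's estimate of spread, the filter on mean signal and the centring of list signals, but no difference is taken from them.

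The adrenal gland holds a cortex, which makes cortisol and other steroids from cholesterol, and a medulla, whose chromaffin cells make adrenaline and noradrenaline. LPS is bound by CD14 and by TLR4 with its partner LY96, and the pathways behind this receptor induce cytokine genes and type I interferon, which in turn switches on a large set of antiviral genes. The long-chain omega-3 fatty acids of fish oil enter cell membranes, compete with arachidonic acid as eicosanoid precursors and act as ligands of lipid-sensing nuclear receptors.

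Values are log2 signals of array probe sets, so a difference of 1 is a 2-fold difference in signal, and levels cannot be compared between genes. Differences are fish oil minus control with the standard error (SE) of a limma model over all 19 arrays. Whole glands were measured, so fewer cells of a type and less RNA per cell cannot be told apart. The defining cortical genes CYP17A1, HSD3B1 and CYP21A2 were measured in every gland. Of the medulla markers, 15 of 23 listed genes were measured, DBH and PNMT among them. Piglets 6 and 24 stood apart from the other arrays, and both lie in this comparison. The interquartile range of their signals was 2.39 and 2.27, against 2.44 to 2.65 in the other 17 arrays. Their median correlation with the other arrays was 0.962 and 0.952, against 0.965 to 0.977. Without these 2 piglets the median of 12 of the 24 gene lists below moved by over 1.5 times or changed sign, and each such value is given. The same held for the difference of 56 of 139 named genes, of which 5 changed sign, and for 91 of the 139 without at least 1 single piglet. Single genes with wide errors therefore have no settled size, and their values without a piglet are given for many but not all of them.

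No probe set passed an adjusted p of 0.05 between the diets after maternal LPS, 0 of 20668 tested (0.0%), by limma with Benjamini-Hochberg adjustment. The lowest adjusted limma p was 0.9999. At an unadjusted limma p under 0.05, 333 probe sets were higher with fish oil (1.61% of those tested) and 358 were lower (1.73%), 691 in all. These 691 are fewer than a p under 0.05 gives on average when no probe set differs. The 4 fish oil piglets all lay above the 3 controls at 367 probe sets (1.78%) and all below them at 327 (1.58%). Both counts are likewise fewer than a random split of the piglets into groups of 4 and 3 gives on average. The median SE of a difference was 0.20, and the median 95% interval reached 0.42 to either side of the estimate. These intervals cover 1 gene each and are not adjusted for the number of probe sets. Without piglet 24 a single probe set with no gene symbol (15181485) passed, at an adjusted limma p of 0.0399. It read 4.62, 4.4 and 4.24 in the controls and 3.18, 3.18, 2.93 and 3.89 in fish oil piglets 10, 19, 20 and 24. All genes below are therefore named by size or by list membership, and none of them passed the adjusted threshold in either comparison described here.

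Signals of interferon-stimulated antiviral genes were lower with fish oil after maternal LPS. All 25 measured genes of this list of 46 had lower means, by 0.13 to 0.94, with a median difference of -0.46. This was the lowest median of 41 lists, which were chosen with earlier results of these data known. The 25 genes were read in the same 7 piglets and are not independent observations. Over all 20668 probe sets the median was -0.00, and 49.3% were higher. At an unadjusted limma p under 0.05, 7 of the 25 were lower (3 without piglet 20, 12 without piglet 24), and 5 had groups that did not overlap. Both counts stand against the backgrounds of 1.73% and 1.58% given above. The list's mean relative signal was 0.03, -0.17 and -0.10 in control piglets 6, 16 and 17. It was -0.35, -0.46, -1.33 and -0.20 in fish oil piglets 10, 19, 20 and 24. Every fish oil piglet lay below every control, with piglet 24 close to control piglet 16 and piglet 20 far below the rest.

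**Figure D1:**
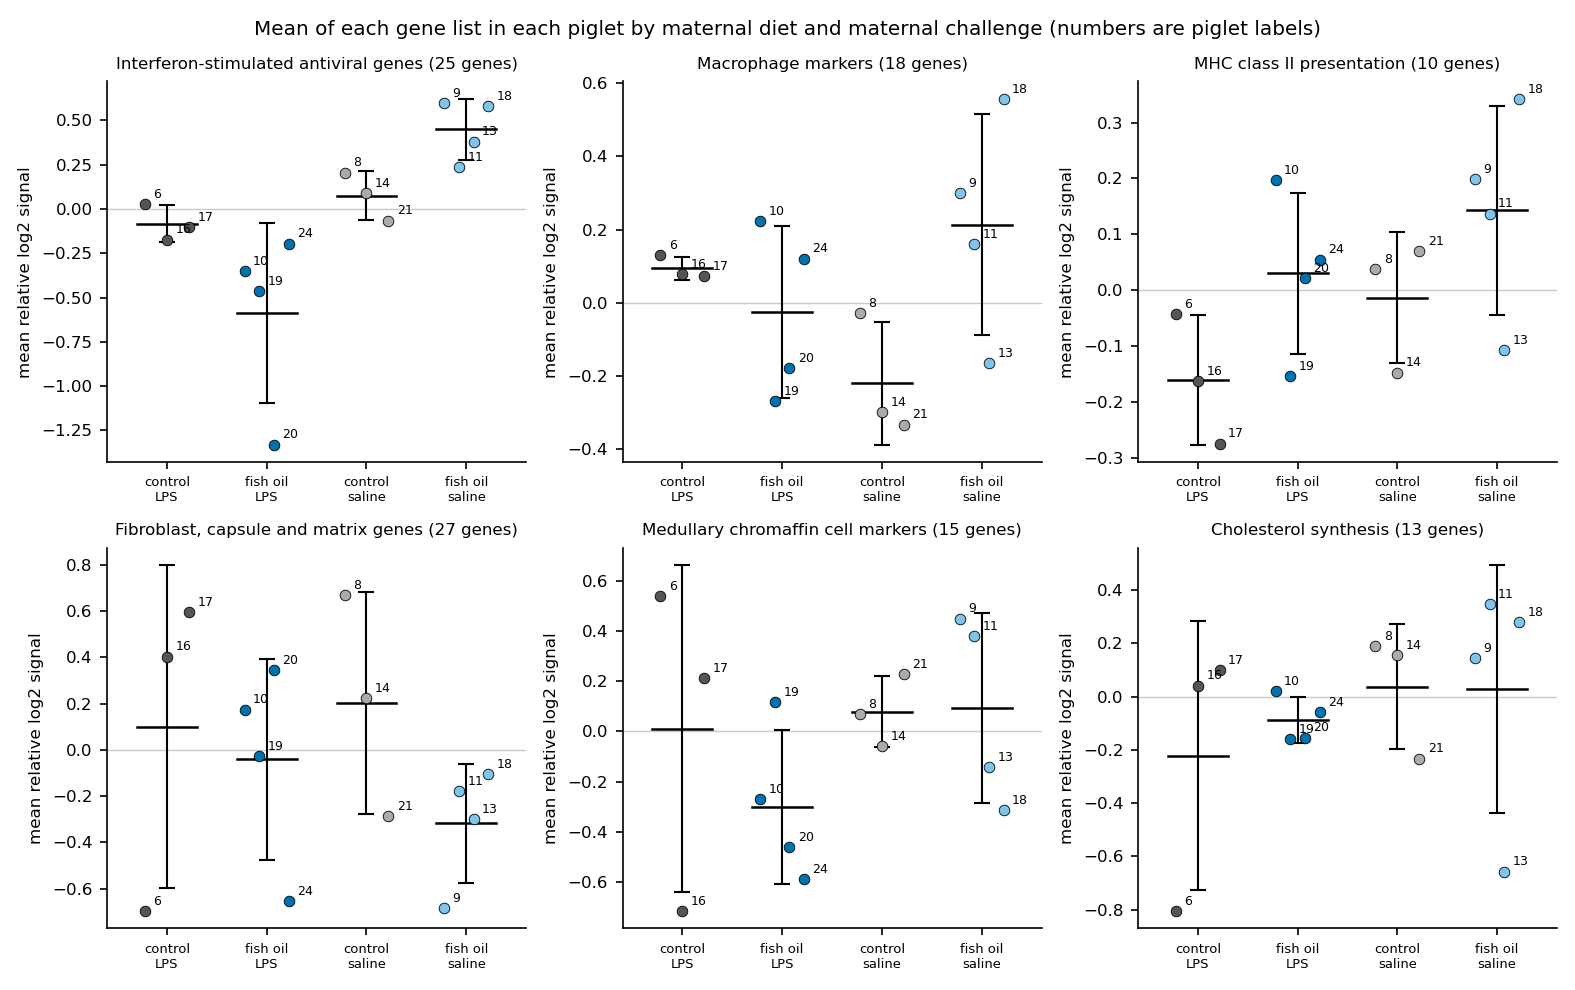
Mean relative log2 signal of 6 gene lists (vertical axis; each gene centred on its mean over all 19 arrays) in the 14 piglets of control and fish oil sows, by maternal diet and maternal challenge. Points are piglets, long lines group means and bars SD. For the interferon-stimulated genes the fish oil piglets lay below the controls after maternal LPS and above them after maternal saline, and piglet 20 was lowest at -1.33.

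The size of this difference depended on piglet 20. Without it the median over the 25 genes was -0.24, and 23 of 25 were lower. Without any of the other 6 piglets all 25 remained lower, with medians of -0.48 to -0.57, and without piglets 6 and 24 together the median was -0.58. With each array centred on its median, all 25 were lower with a median of -0.44, and with quantile scaling the median was -0.47. A covariate for the medulla markers gave -0.40.

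Among the single antiviral genes, HERC5, a ligase that attaches the ubiquitin-like protein ISG15, showed the largest difference. It read 9.15, 8.66 and 8.49 in control piglets 6, 16 and 17 and 8.12, 8.09, 6.80 and 8.28 in fish oil piglets 10, 19, 20 and 24. Its groups did not overlap, and the difference was -0.94 ± 0.32 (SE; 95% interval -1.63 to -0.26). IFIH1, the cytosolic sensor of long double-stranded RNA, varied little among the controls, at 8.97, 8.93 and 9.0. The fish oil piglets read 8.56, 8.55, 8.12 and 8.57, all lower, a difference of -0.52 ± 0.17 (95% interval -0.88 to -0.16). EIF2AK2, the kinase PKR that halts translation on sensing double-stranded RNA, read 9.63, 9.64 and 9.85 in controls and 9.41, 9.46, 8.75 and 9.12 with fish oil. Its groups did not overlap either, and the difference was -0.52 ± 0.18 (95% interval -0.91 to -0.14).

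PARP14, an interferon-induced ADP-ribosyltransferase, read 9.19, 9.25 and 9.03 in controls and 8.72, 8.80, 7.51 and 8.92 with fish oil, a difference of -0.67 ± 0.28. MX2, a GTPase that blocks virus replication, read 9.13, 8.81 and 8.82 against 8.75, 8.30, 7.20 and 8.57, a difference of -0.71 ± 0.32. For both genes every fish oil piglet lay below every control. Without piglet 20 the differences of HERC5, PARP14 and MX2 were -0.60, -0.34 and -0.38. OAS2, which makes the activator of RNase L, differed by -0.68 ± 0.30, with piglet 19 at 9.06 above control piglet 6 at 9.02. SP110, a nuclear body protein, differed by -0.45 ± 0.20, with 1 fish oil piglet inside the control range (-0.24 without control piglet 16). IFIT3 read 10.36, 9.47 and 9.85 in controls and 9.78, 9.24, 8.09 and 9.55 with fish oil, so its groups overlapped. The difference of IFIT3 was -0.73 ± 0.36 (-0.37 without piglet 20), and its family members IFIT1 and IFIT2, which bind foreign RNA or act beside it, differed by -0.44 ± 0.26 and -0.50 ± 0.42. Without piglet 20 IFIT1 and IFIT2 differed by -0.18 and -0.19, and without control piglet 6 IFIT2 differed by -0.08. RSAD2 (viperin) ranged from 6.20 in piglet 20 to 8.78 in piglet 10 with fish oil and from 7.83 to 9.01 in controls. Its difference of -0.64 ± 0.55 was close to its error.

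After maternal saline the same 25 genes showed differences of the other sign. There, 24 of 25 were higher with fish oil and OAS1 was lower by 0.34, with a median of 0.35. Mean relative signals were 0.21, 0.09 and -0.07 in control piglets 8, 14 and 21 and 0.60, 0.24, 0.38 and 0.58 in fish oil piglets 9, 11, 13 and 18. These groups did not overlap, in the direction opposite to that after maternal LPS. The 2 comparisons share no piglet. The difference between the fish oil effects was tested gene by gene as an interaction, the effect after LPS minus the effect after saline. Over all probe sets no interaction passed the adjusted threshold (0.0% of 20668), and at an unadjusted limma p under 0.05 it was higher for 215 (1.04%) and lower for 330 (1.6%), 545 in all. These 545 are likewise fewer than that threshold gives on average when no interaction exists. All 25 antiviral genes had a negative interaction, with a median of -0.86, and 12 reached an unadjusted limma p under 0.05.

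**Figure D2:**
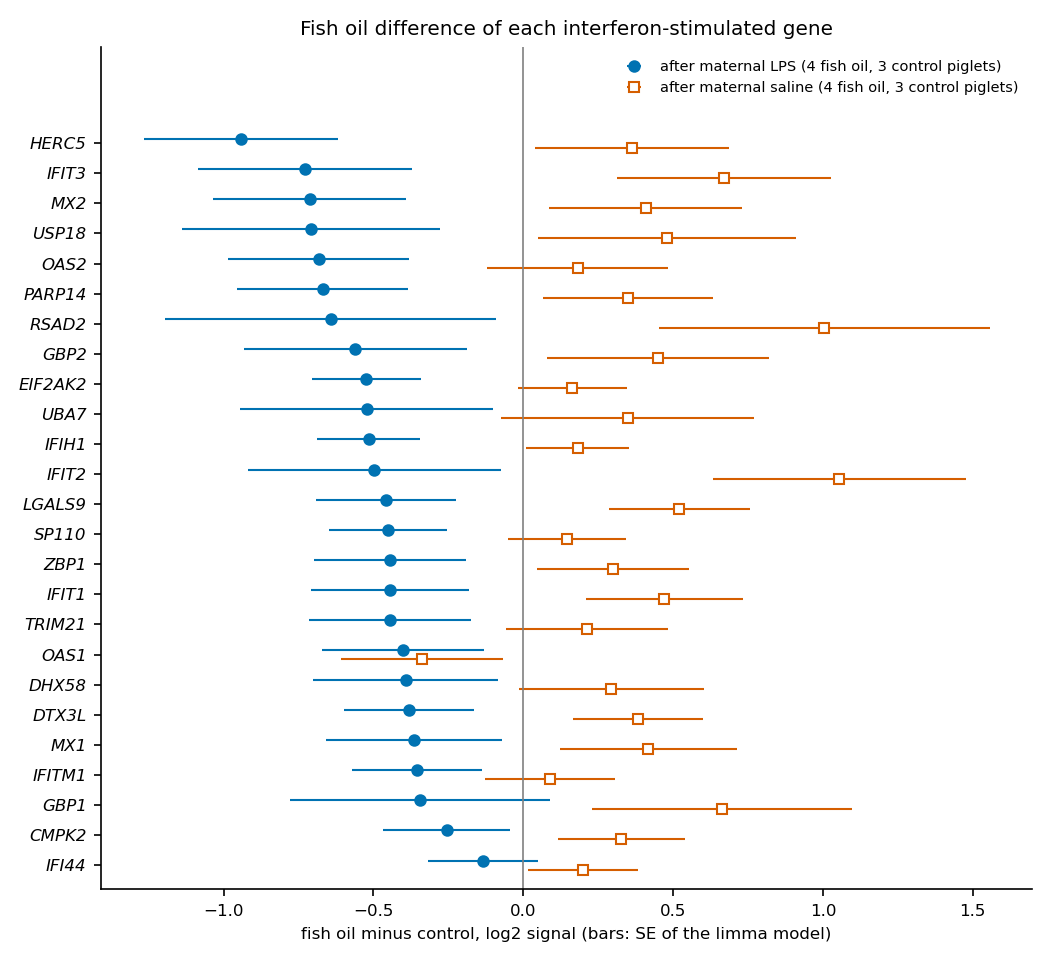
Fish oil minus control difference (horizontal axis, log2 signal, with SE) of the 25 measured interferon-stimulated genes after maternal LPS (filled circles) and after maternal saline (open squares), from 4 fish oil and 3 control piglets each. All 25 circles lie below 0, and 24 of 25 squares lie above it.

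The largest interactions of single antiviral genes were those of RSAD2 (-1.65 ± 0.78), IFIT2 (-1.55 ± 0.60), IFIT3 (-1.40 ± 0.50) and HERC5 (-1.31 ± 0.46). IFIT2 read 8.0, 7.59 and 7.67 in saline controls and 8.98, 8.86, 8.40 and 8.99 in saline fish oil piglets. After maternal LPS it read 8.02, 6.37 and 7.19 in controls and 6.38, 7.05, 5.77 and 7.59 with fish oil. The saline groups of IFIT2 did not overlap, and the LPS groups did. LGALS9, a galectin induced by interferon, had the smallest interaction p of the list (-0.98 ± 0.33, 95% interval -1.68 to -0.28).

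Genes that carry the interferon signal overlapped between the diets. Of 11 measured genes for interferon signalling and its regulators, 9 were lower and 2 higher, with a median of -0.14, and none reached an unadjusted limma p under 0.05. IRF7, the transcription factor that amplifies type I interferon, read 6.71, 6.41 and 6.29 in controls and 6.31, 6.14, 5.30 and 6.69 with fish oil (-0.36 ± 0.25). STAT2, a transcription factor of the type I interferon response, differed by -0.23 ± 0.22, with piglet 20 lowest at 7.12. JAK2 and IRF2 differed by -0.42 ± 0.28 and -0.33 ± 0.21. Piglet 20 was the lowest of the 7 for IRF7, STAT2 and JAK2, and the list's median was -0.07 without it or without piglet 10.

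Chemokines induced by interferon overlapped between the diets. Of 5 measured, 4 were lower with fish oil after maternal LPS, with a median of -0.27 (-0.01 without piglet 20, 0.05 without control piglet 16 and -0.48 without piglets 6 and 24), and all 5 were higher after maternal saline, with a median of 0.41. CXCL10, a ligand of CXCR3, a chemokine receptor of T cells, read 11.60, 11.56 and 11.44 in controls and 11.36, 11.55, 10.59 and 11.56 with fish oil (-0.27 ± 0.20). CXCL11, a further ligand of CXCR3, ranged from 4.19 in piglet 20 to 6.83 in piglet 24 with fish oil, against 5.58 to 6.99 in controls (-0.35 ± 0.59). Without piglet 20 the CXCL11 difference was 0.19. CXCL9 differed by -0.40 ± 0.47, and CCL8, a monocyte attractant, by -0.23 ± 0.40. CXCL11 and CCL8 differed by -0.79 and -0.74 without piglets 6 and 24.

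Sensors of nucleic acids did not share 1 direction in this list. It leaves out the double-stranded RNA sensors IFIH1 and EIF2AK2, which were counted with the antiviral genes and were lower. Of 8 measured, 5 were higher and 3 lower, with a median of 0.12, and the median was 0.02 without piglet 6 and 0.0082 without piglets 6 and 24. Groups did not overlap for 2 with fish oil higher and 1 with fish oil lower, against 1.78% and 1.58% of all probe sets. TLR7, the endosomal receptor of single-stranded RNA, read 3.34, 3.41 and 3.78 in controls and 4.45, 4.10, 4.33 and 4.10 with fish oil. All 4 fish oil piglets lay above the controls, by 0.73 ± 0.20 (95% interval 0.30 to 1.16). TLR8, its neighbour in function, read 3.22, 3.36 and 3.40 against 3.54, 3.58, 3.84 and 3.45, also without overlap (0.28 ± 0.16). Both are dim probe sets, close to the filter level of 3.23. With a higher filter, which drops the dimmer members of the list, the median of those left was -0.40. TLR9, the receptor of unmethylated DNA, differed by 0.24 ± 0.17 (0.05 without piglets 6 and 24), and by -0.03 ± 0.21 at its other probe set. MB21D1 (cGAS), the cytosolic DNA sensor, differed by -0.46 ± 0.24.

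Receptors and adaptors of the LPS pathway were mostly lower with fish oil. Of 13 measured, 9 were lower and 4 higher, with a median of -0.17, or -0.29 without piglets 6 and 24 and -0.05 without control piglet 16. At an unadjusted limma p under 0.05, 1 of the 13 was lower, against 1.73% of all probe sets. That gene, LY96 (MD-2), which binds LPS together with TLR4, read 4.44, 5.03 and 4.77 in controls and 4.68, 4.34, 3.86 and 4.03 with fish oil (-0.52 ± 0.23, 95% interval -1.01 to -0.03). After maternal saline LY96 was higher with fish oil by 0.61, and the interaction was -1.13 ± 0.33 (95% interval -1.82 to -0.43). TLR4 itself differed by -0.05 ± 0.28 and CD14 by -0.14 ± 0.22, both with overlapping groups, and TLR4 by -0.42 without piglets 6 and 24. TLR2, the receptor of bacterial lipoproteins, read 5.64, 5.66 and 5.78 in controls and 5.10, 5.30, 5.84 and 5.29 with fish oil, with piglet 20 above the controls and the others below (-0.31 ± 0.16). A dimmer probe set of TLR2 differed by 0.19 ± 0.25. TLR1, a partner of TLR2, and the kinase IRAK4 differed by -0.32 ± 0.20 and -0.28 ± 0.21.

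Acute cytokines and chemokines were lower for 14 of 17 measured genes, with a median of -0.24 and none at an unadjusted limma p under 0.05. The median was -0.13 without control piglet 17 and -0.12 without piglet 10. IL6, an early cytokine that also acts on the adrenal cortex, read 8.98, 11.13 and 11.13 in controls and 8.83, 10.73, 10.20 and 9.53 with fish oil. Control piglet 6 had a low IL6 signal, close to that of fish oil piglet 10, so the groups overlapped (-0.59 ± 0.57). Without piglets 6 and 24 the differences of IL6 and CXCL8 were -1.21 and -0.72. CXCL8, the neutrophil attractant interleukin-8, followed the same order of piglets, 9.74, 10.84 and 10.90 against 9.32, 10.58, 10.56 and 10.21 (-0.32 ± 0.36). TNF differed by 0.00 ± 0.28 and IL10, an inhibitory cytokine, by -0.16 ± 0.18. LIF, CCL3L1 and IL12B differed by -0.41 ± 0.26, -0.41 ± 0.26 and -0.24 ± 0.15, while IL18, which induces interferon gamma, differed by 0.33 ± 0.23.

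The inducible effectors downstream of these cytokines gave 15 lower and 6 higher of 21 measured genes, with a median of -0.06 that lay between -0.21 and 0.03 without 1 piglet and was -0.12 without piglets 6 and 24. PTX3, a soluble pattern recognition protein, read 5.24, 6.82 and 6.27 in controls and 5.25, 6.12, 5.35 and 5.07 with fish oil (-0.66 ± 0.42). Its difference after maternal saline had the same sign, -1.35 ± 0.42 (95% interval -2.23 to -0.47). PTGS2, the inducible cyclooxygenase that makes prostaglandins from arachidonic acid, differed by -0.27 ± 0.41. NFKBIA, the inhibitor induced by NF-kappa B, differed by -0.13 ± 0.22, and NFKBIZ, a nuclear regulator of secondary response genes, by -0.51 ± 0.28. PTGS2 and NFKBIA differed by -0.70 and -0.30 without piglets 6 and 24. LCN2, an iron-sequestering acute phase protein, differed by -0.51 ± 0.36 and CD83, a marker of activated antigen-presenting cells, by 0.42 ± 0.23. Complement and coagulation genes were lower for 11 of 11 measured genes, with a median of -0.21 and none at an unadjusted limma p under 0.05. That median was -0.02 without control piglet 17, -0.13 without piglet 19 and -0.45 without control piglet 16. SERPING1, the C1 inhibitor, differed by -0.42 ± 0.22, and the plasminogen activators PLAT and PLAU by -0.57 ± 0.49 and -0.45 ± 0.30. SERPING1 and PLAT differed by -0.25 and -1.12 without piglets 6 and 24, and without control piglet 17 PLAU differed by -0.11.

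**Figure D3:**
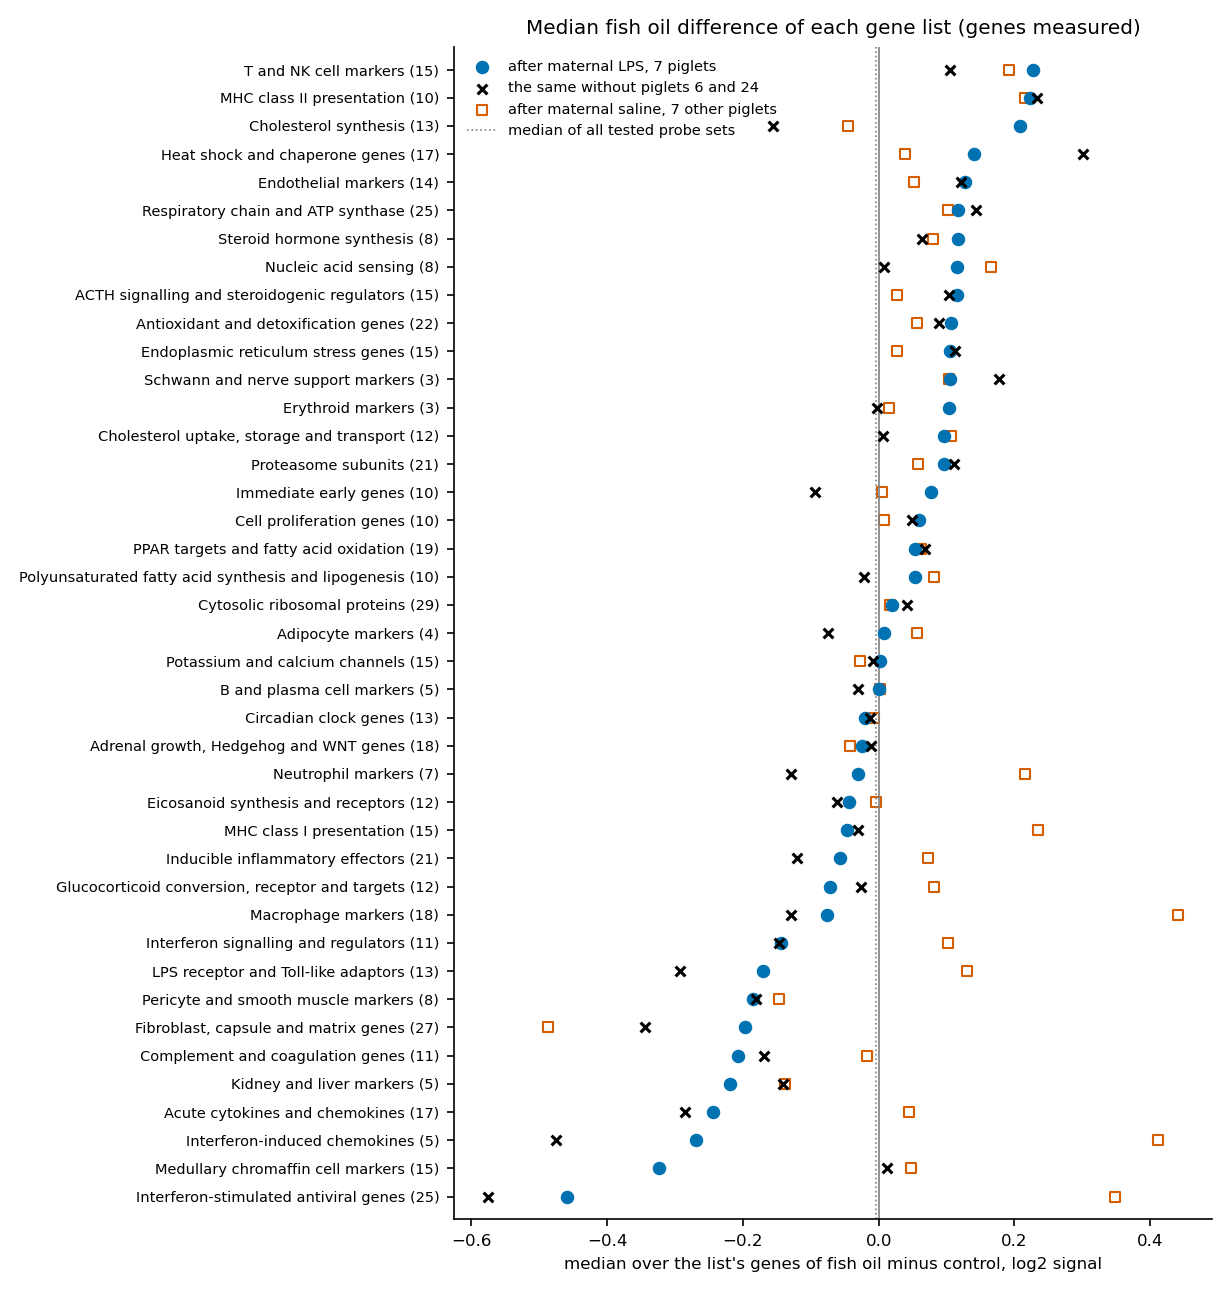
Median over the measured genes of each list (gene numbers in brackets) of the fish oil minus control difference, horizontal axis in log2 signal. Filled circles are the 7 piglets after maternal LPS, crosses the same without piglets 6 and 24, and open squares the 7 other piglets after maternal saline; the dotted line is the median of all tested probe sets, -0.00. Interferon-stimulated genes lie lowest at -0.46, and the medulla and cholesterol synthesis lists move to 0.01 and -0.16 without the 2 piglets.

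Of the antigen presentation genes, class II members were mostly higher. For MHC class II, which shows peptides to helper T cells, 8 of 10 measured genes were higher with fish oil, with a median of 0.22, and the median after maternal saline was also 0.22. The median was 0.14 without piglet 10. Mean relative signals overlapped, at -0.04, -0.16 and -0.27 in controls and 0.20, -0.15, 0.02 and 0.05 with fish oil. SLA-DRB1, a class II beta chain of the pig, read 5.32, 5.01 and 5.12 in controls and 6.17, 5.42, 5.68 and 5.73 with fish oil. Its groups did not overlap (0.60 ± 0.25, 95% interval 0.08 to 1.12), while after maternal saline it differed by -0.01 ± 0.25. SLA-DOB, which tunes peptide loading, differed by 0.71 ± 0.34, with piglet 20 highest at 5.90 (0.43 without it). RFX5, a transcription factor of class II promoters, went the other way without overlap, 5.52, 5.41 and 5.41 against 5.19, 5.20, 5.02 and 4.87 (-0.37 ± 0.18). CTSS, the protease that processes the invariant chain, differed by -0.38 ± 0.19. For MHC class I, 9 of 15 were lower and 6 higher, with a median of -0.05 that lay between -0.16 and 0.10 without 1 piglet, and piglet 20 had the lowest mean relative signal at -0.65.

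Macrophage markers overlapped between the diets after maternal LPS. Of 18 measured, 11 were lower and 7 higher, with a median of -0.08 that lay between -0.03 and -0.18 without 1 piglet and was -0.13 without piglets 6 and 24. Their mean relative signal was 0.13, 0.08 and 0.07 in controls and 0.22, -0.27, -0.18 and 0.12 in fish oil piglets 10, 19, 20 and 24. Fish oil piglets thus lay on both sides of the controls, and the 2 with the lowest antiviral signals, 19 and 20, had the lowest macrophage signals of the 7. Any part of macrophage number in the antiviral difference was not tested. After maternal saline all 18 were higher with fish oil, with a median of 0.44. MRC1, the mannose receptor of tissue macrophages, differed by -0.07 ± 0.28 after LPS and by 0.83 ± 0.28 after saline. C1QC, a complement subunit made by macrophages, differed by -0.50 ± 0.35 after LPS and by 0.79 ± 0.35 after saline, an interaction of -1.29 ± 0.50 (95% interval -2.33 to -0.25). CSF1R, the growth factor receptor of the lineage, differed by -0.18 ± 0.18, MSR1 by -0.37 ± 0.22 and the costimulatory CD80 by -0.47 ± 0.36.

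T and NK cell markers were higher with fish oil for 14 of 15 measured genes, with a median of 0.23 and none at an unadjusted limma p under 0.05. The median was 0.14 without piglet 24 and 0.10 without piglets 6 and 24. Mean relative signals were -0.13, -0.06 and -0.19 in controls and 0.23, -0.17, -0.07 and 0.39 with fish oil. Piglets 10 and 24 were high, and the other 2 fish oil piglets lay within the control range. CD8A, the coreceptor of cytotoxic T cells, read 4.06 and 4.41 in those 2 piglets, 3.44 and 3.41 in piglets 19 and 20 and 3.30, 3.52 and 3.63 in controls. PRF1, the pore protein of killer cells, differed by 0.29 ± 0.18 and CD247, the zeta chain of the T cell receptor, by 0.23 ± 0.12. GZMA, a killer cell protease, differed by 0.52 ± 0.30, but its control mean lay under the filter level. The differences of PRF1, CD247 and GZMA were 0.12, 0.10 and 0.31 without piglets 6 and 24.

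Matrix and vessel wall genes spread widely within both diets. Of 27 measured fibroblast, capsule and matrix genes, 20 were lower with fish oil and 7 higher, with a median of -0.20. The median was 0.01 without piglet 24, 0.07 without control piglet 17 and -0.43 without piglet 6, and it was -0.34 without piglets 6 and 24. Piglets 24 and 6 had the lowest mean relative signals, -0.65 and -0.70. COL1A1, the main chain of type I collagen, read 6.34, 9.13 and 9.16 in controls and 8.58, 7.50, 8.0 and 6.58 with fish oil (-0.55 ± 0.66). The COL1A1 difference was -1.48 without piglet 6, -0.09 without control piglet 16, -0.07 without control piglet 17 and -1.12 without piglets 6 and 24. COL3A1 differed by -0.67 ± 0.41, and VCAN, a matrix proteoglycan, by -0.56 ± 0.38, which were -0.40 and -0.17 without control piglet 17. COL5A2, a chain of type V collagen, did not overlap, 4.73, 4.67 and 5.16 against 4.43, 4.47, 4.58 and 4.47 (-0.36 ± 0.15, 95% interval -0.69 to -0.04; -0.21 without control piglet 17). POSTN, a matricellular protein, went the other way, at 4.80, 7.54 and 4.29 in controls and 8.03, 7.23, 7.67 and 5.93 with fish oil. Control piglet 16 lay within the fish oil range, and the difference was 1.68 ± 0.74 (95% interval 0.13 to 3.23). It was 2.67 without that piglet and 1.05 without control piglet 17. After maternal saline the matrix median was -0.49, with 24 of 27 lower.

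Of 8 pericyte and smooth muscle markers, 6 were lower, with a median of -0.19. That median was -0.01 without control piglet 17, -0.06 without piglet 24, -0.31 without piglet 20 and -0.37 without piglet 6. RGS5, a pericyte marker, differed by -0.98 ± 0.48, from 6.85 in piglet 24 to 9.09 in piglet 19 with fish oil and from 8.08 to 9.71 in controls. Without piglets 6 and 24 the RGS5 difference was -0.23. The smooth muscle genes ACTA2 and TAGLN differed by -0.58 ± 0.50 and -0.44 ± 0.29, and PDGFRB by -0.20 ± 0.19.

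Steroid hormone synthesis showed small differences within error. Of 8 measured genes, 7 were higher with fish oil and 1 lower, with a median of 0.12, and none reached an unadjusted limma p under 0.05. Without piglet 6, and likewise without piglet 20, 4 were higher and 4 lower, with medians of 0.03 and 0.01. A covariate for the medulla markers also gave 4 higher and 4 lower, with a median of 0.0095, and the median was 0.06 without piglets 6 and 24. Over all alternatives and fits without piglets the median lay between -0.06 and 0.20, so its sign was not fixed. CYP17A1, the hydroxylase and lyase on the way to cortisol and androgens, read 12.27, 12.49 and 12.18 in controls and 12.62, 12.44, 12.32 and 12.25 with fish oil. Its difference was 0.09 ± 0.16, with a 95% interval from -0.25 to 0.44. CYP21A2, the 21-hydroxylase of cortisol and aldosterone synthesis, read 10.94, 11.21 and 10.87 against 11.47, 11.31, 11.09 and 11.24. Of those 4 readings, 3 exceeded every control, and the difference was 0.27 ± 0.17 (95% interval -0.08 to 0.63). HSD3B1, which makes progesterone from pregnenolone, differed by 0.14 ± 0.24, with piglet 20 highest at 11.75 and control piglet 6 lowest at 10.73. FDXR, the reductase that supplies electrons to mitochondrial steroid enzymes, differed by 0.25 ± 0.21, and HSD17B1, an oestrogen-forming dehydrogenase, by -0.31 ± 0.18.

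**Figure D4:**
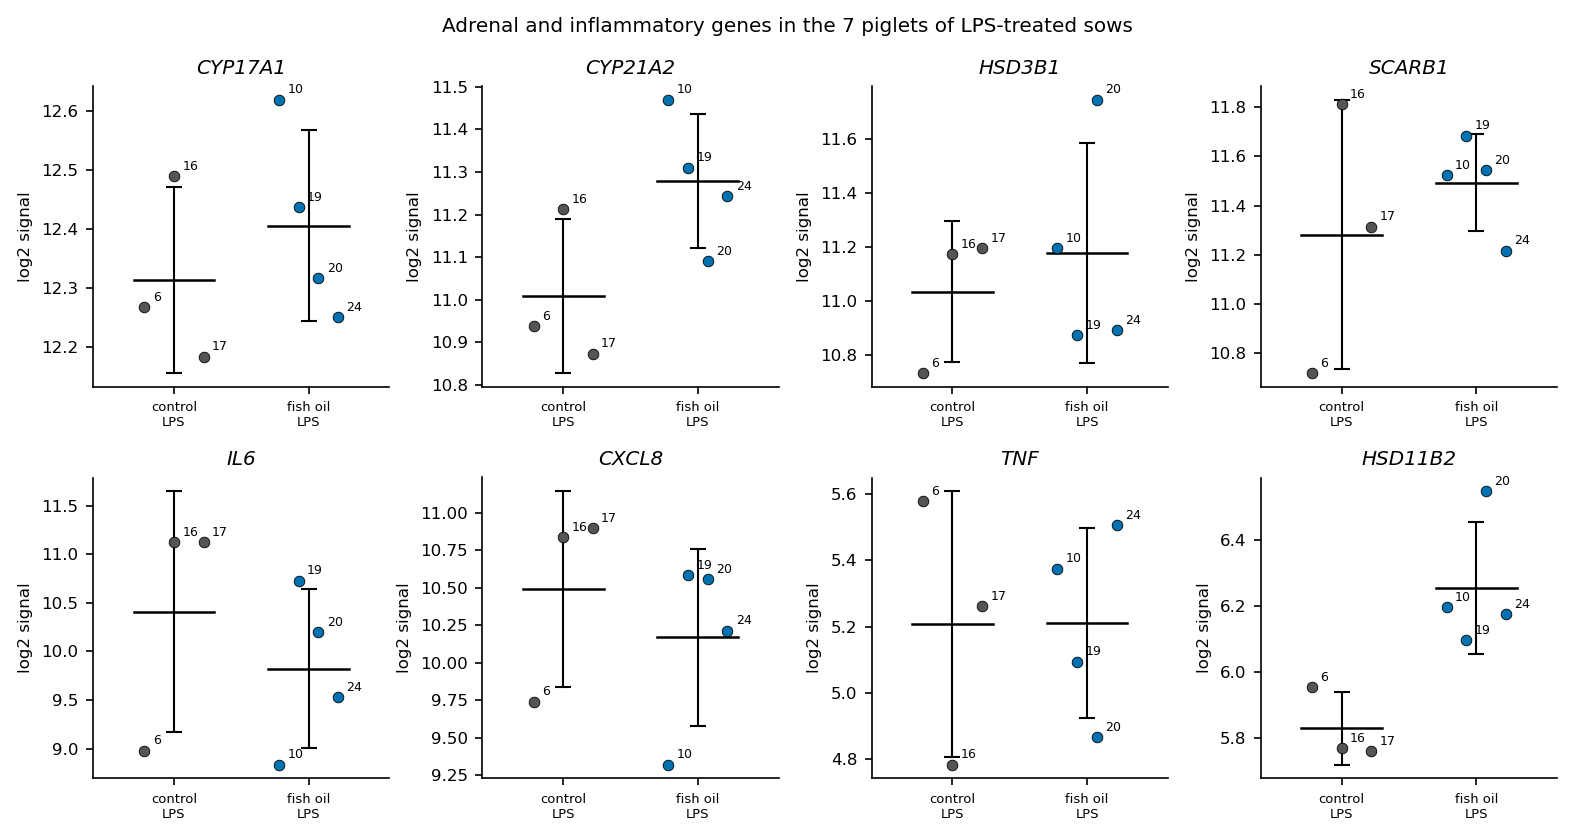
Log2 signal (vertical axis, a separate scale for each gene) of 8 adrenal and inflammatory genes in the 3 control and 4 fish oil piglets after maternal LPS. Points are piglets with their numbers, long lines group means and bars SD. Groups overlap for 7 of the 8 genes, and for HSD11B2 the fish oil piglets lie between 6.10 and 6.55, above the controls at 5.76 to 5.95.

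Upstream of steroid synthesis, 9 of 15 genes of ACTH signalling and steroidogenic regulation were higher, with a median of 0.11 (0.03 without piglet 6 or without piglet 20, 0.24 without piglet 24 and 0.27 without control piglet 17). ADCY9, an adenylyl cyclase that makes the second messenger of ACTH, read 4.65, 5.29 and 5.17 in controls and 5.67, 5.21, 5.30 and 5.72 with fish oil (0.44 ± 0.19, 95% interval 0.03 to 0.85). Without piglets 6 and 24 the ADCY9 difference was 0.16. ADCY3 and the catalytic kinase subunit PRKACA differed by 0.33 ± 0.18 and 0.21 ± 0.16. KCNK9, a background potassium channel of cortical cells, read 2.10, 4.46 and 2.84 in controls and 3.92, 4.14, 3.93 and 3.60 with fish oil. Its control mean lay under the filter level, so the difference of 0.77 ± 0.41 is uncertain, and it was 0.35 without piglets 6 and 24 and 1.43 without control piglet 16.

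Cholesterol supply depended on control piglet 6. Of 13 measured cholesterol synthesis genes, 11 were higher with fish oil, with a median of 0.21. Without piglet 6 the median was -0.12 and 9 of 13 were lower, while without control piglet 16 or 17 it was 0.37 or 0.38. The list's mean relative signal was -0.81 in piglet 6, against 0.04 and 0.10 in the other controls and 0.02, -0.16, -0.15 and -0.06 with fish oil. NSDHL, a sterol dehydrogenase of the pathway, showed this plainly, at 5.68 in piglet 6 and between 6.66 and 6.89 in the other 6 piglets. MVK and TM7SF2 differed by 0.28 ± 0.24 and 0.28 ± 0.25, and HSD17B7 by -0.42 ± 0.24. The list's median was -0.16 without piglets 6 and 24, where MVK, TM7SF2 and HSD17B7 differed by 0.06, -0.11 and -0.67. SCARB1, the high density lipoprotein receptor of cortical cells, read 10.72, 11.81 and 11.31 in controls and 11.52, 11.68, 11.54 and 11.22 with fish oil (0.21 ± 0.24). Without piglets 6 and 24 it differed by 0.02.

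Conversion and sensing of glucocorticoids differed at single genes. HSD11B2, which inactivates cortisol to cortisone, read 5.95, 5.77 and 5.76 in controls and 6.20, 6.10, 6.55 and 6.17 with fish oil. Every fish oil piglet lay above every control, by 0.43 ± 0.23 (95% interval -0.07 to 0.92). After maternal saline HSD11B2 was also higher with fish oil without overlap, by 0.64 ± 0.23. HSD11B1, which works in the opposite direction, differed by -0.04 ± 0.24, and the glucocorticoid receptor NR3C1 by -0.27 ± 0.23. KLF9, a target gene of that receptor, read 5.36, 5.75 and 6.04 in controls and 5.29, 5.05, 5.41 and 4.84 with fish oil, an overlap of 1 piglet (-0.57 ± 0.18, 95% interval -0.95 to -0.18). ANXA1, an anti-inflammatory target, read 7.29, 7.40 and 7.44 against 7.07, 6.48, 6.52 and 7.30 (-0.53 ± 0.19, 95% interval -0.94 to -0.13). ANXA1 was higher with fish oil by 0.45 after maternal saline, an interaction of -0.98 ± 0.27 (95% interval -1.56 to -0.41). TSC22D3 (GILZ), a further target, differed by 0.24 ± 0.17. Over the 12 measured genes of this list 7 were lower and 5 higher, with a median of -0.07 that lay between -0.26 and 0.02 without 1 piglet and was -0.03 without piglets 6 and 24.

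Medulla markers were lower for 11 of 15 measured genes, with a median of -0.32. At an unadjusted limma p under 0.05, 1 of the 15 was lower, against 1.73% of all probe sets. The mean relative signal of the 15 markers was 0.54, -0.71 and 0.21 in control piglets 6, 16 and 17. It was -0.27, 0.12, -0.46 and -0.59 in fish oil piglets 10, 19, 20 and 24. The controls spanned the whole range of the fish oil piglets. Without piglet 6 the median was 0.03, without piglets 6 and 24 it was 0.01, without control piglet 16 it was -0.84, without control piglet 17 -0.16 and without piglet 19 -0.53. PCSK1, a prohormone convertase of secretory granules, was the gene at the lowest p (-0.81 ± 0.34, 95% interval -1.53 to -0.09), and HAND2, a transcription factor of the noradrenergic lineage, differed by -0.83 ± 0.41. The HAND2 difference was -0.28 without piglet 6 and -1.29 without control piglet 16, and without piglets 6 and 24 HAND2 and PCSK1 differed by -0.24 and -0.39. DBH, which makes noradrenaline, read 7.51, 5.50 and 6.61 in controls and 6.13, 6.84, 5.85 and 6.06 with fish oil (-0.32 ± 0.50). PNMT, which makes adrenaline, differed by -0.16 ± 0.52. DBH and PNMT differed by 0.21 and 0.42 without piglets 6 and 24. With a covariate for the medulla markers, itself built from this list, the medulla median was 0.06. Of the other lists, that covariate moved the median by over 1.5 times for steroid synthesis, given above, for the matrix genes (-0.33), nucleic acid sensing (0.05), the inducible effectors (-0.12), ACTH signalling (0.06) and the PPAR targets below (0.03).

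Lipid and energy genes were more often higher than lower. Of 19 measured targets of PPAR and genes of fatty acid oxidation, 14 were higher, with a median of 0.05 that lay between 0.01 and 0.22 without 1 piglet. Over all 9987 genes with 1 symbol, 5212 were higher. Of the 19, 3 had groups that did not overlap, all with fish oil higher, against 1.78% of all probe sets. SLC25A20, the carnitine carrier of the inner membrane, read 6.43, 6.51 and 6.18 in controls and 6.93, 6.89, 6.55 and 6.81 with fish oil (0.42 ± 0.18, 95% interval 0.04 to 0.80). CPT1A, the transferase of the outer membrane, read 8.25, 8.33 and 8.15 against 8.59, 8.50, 8.44 and 8.34 (0.22 ± 0.14). CPT2, the transferase of the inner membrane, read 4.34, 4.67 and 4.68 against 4.85, 4.81, 4.85 and 4.98 (0.31 ± 0.19; 0.16 without piglets 6 and 24). All 3 also had higher means with fish oil after maternal saline, by 0.20, 0.06 and 0.36. The desaturases that make long-chain polyunsaturated fatty acids, FADS1 and FADS2, differed by -0.09 ± 0.28 and 0.19 ± 0.18. Of 25 respiratory chain and ATP synthase genes, 18 were higher, with a median of 0.12 and none at an unadjusted limma p under 0.05. The median was 0.03 without control piglet 17, 0.05 without piglet 10 and 0.18 without control piglet 16 or without piglet 20. NDUFB8, a complex I subunit, read 6.04, 6.17 and 6.06 against 6.71, 6.22, 6.19 and 6.28, without overlap (0.26 ± 0.16; 0.14 without piglet 10).

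Stress defence genes were mostly higher with fish oil. Of 22 antioxidant and detoxification genes, 14 were higher, with a median of 0.11 (0.18 without piglet 24). NQO1, a quinone reductase under control of NRF2, read 5.90, 5.99 and 5.83 in controls and 6.14, 6.27, 6.65 and 6.25 with fish oil, without overlap (0.42 ± 0.17, 95% interval 0.07 to 0.78). CAT (catalase), GSR and PRDX6 differed by 0.44 ± 0.22, 0.33 ± 0.16 and 0.32 ± 0.18, and CAT by 0.26 without piglets 6 and 24 and PRDX6 by 0.09 without control piglet 17. Heat shock and chaperone genes were higher for 16 of 17, with a median of 0.14 and none at an unadjusted limma p under 0.05. Without piglet 10 the median was 0.06 with 10 of 17 higher, without piglet 20 it was 0.06 with 12 of 17 higher, and without piglets 17 and 24 in turn it was 0.09 and 0.23. Without piglets 6 and 24 together it was 0.30. DNAJB1, an inducible cochaperone, was split within the fish oil group, at 9.09 and 9.26 in piglets 10 and 20 and 7.27 and 6.94 in piglets 19 and 24, against 7.26 to 8.29 in controls. HSPA5, the main chaperone of the endoplasmic reticulum, differed by 0.25 ± 0.16.

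Of 15 endoplasmic reticulum stress genes, 9 were higher, with a median of 0.10 (0.06 without piglet 10, 0.16 without piglet 24). DDIT3 (CHOP), a transcription factor of that stress response, read 5.22, 5.28 and 5.14 in controls and 5.45, 5.81, 5.38 and 5.52 with fish oil, without overlap (0.33 ± 0.15, 95% interval 0.02 to 0.64). PDIA4, a disulfide isomerase, read 7.08, 7.30 and 7.25 against 7.86, 7.34, 7.36 and 7.38, also without overlap but with 3 readings close to the controls (0.27 ± 0.17; 0.15 without piglet 10). Of 21 proteasome subunits, 17 were higher, with a median of 0.10 (0.05 without piglet 6 or without piglet 10, 0.15 without control piglet 16). PSMB5, a catalytic subunit, differed by 0.44 ± 0.17 (95% interval 0.09 to 0.80), and PSMC1, an ATPase of the cap, by 0.34 ± 0.16 without overlap (0.21 without piglet 19). With the spread of each array's signals as a covariate, the median was 0.05 for the endoplasmic reticulum stress genes and 0.06 for the proteasome. That covariate also moved the medians of the inducible effectors (-0.09), matrix genes (-0.30), steroid synthesis (0.06) and ACTH signalling (0.06) by over 1.5 times.

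Beyond the lists, genes were named at an unadjusted limma p under 0.01 where the groups did not overlap and both group means lay above the filter level. This held for 24 probe sets higher and 11 lower with fish oil, of the 10693 tested probe sets with 1 gene symbol. The 10 largest are named for each direction. TIMP1, an inhibitor of matrix metalloproteinases, was lower, at 9.45, 9.73 and 9.97 in controls and 8.81, 9.23, 8.63 and 8.52 with fish oil (-0.92 ± 0.25, 95% interval -1.44 to -0.40). CNIH3, an auxiliary protein of glutamate receptors, read 4.15, 4.13 and 4.66 against 3.67, 3.57, 3.61 and 3.06 (-0.84 ± 0.25). ROBO1, a guidance receptor for SLIT ligands, read 5.36, 5.29 and 5.02 against 4.54, 4.68, 4.86 and 4.04 (-0.69 ± 0.18, 95% interval -1.06 to -0.32). The other lower genes were HERC5 and IFIH1, described above, the phosphatase DUSP18 (-0.50 ± 0.15), the secreted ANGPTL2 (-0.50 ± 0.17), the chondroitin synthase CHSY3 (-0.47 ± 0.14) and the uncharacterised LOC100154752 and LOC100523020 (-0.57 each). A second probe set of CHSY3 differed by 0.26 ± 0.32.

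On the higher side, SLC37A1, a sugar phosphate transporter of the endoplasmic reticulum, had the smallest p of a named gene. It read 4.89, 5.14 and 5.31 in controls and 5.63, 5.67, 5.72 and 5.71 with fish oil (0.57 ± 0.13, 95% interval 0.29 to 0.85). The 4 fish oil piglets lay within 0.1 of each other. PLA2G12A, a secreted phospholipase A2 that frees fatty acids from membranes, read 5.02, 4.65 and 4.30 against 5.63, 5.29, 5.06 and 5.23 (0.64 ± 0.20). PCCB, a subunit of propionyl-CoA carboxylase, read 5.62, 6.17 and 5.91 against 6.85, 6.43, 6.41 and 6.19 (0.57 ± 0.18), and its other probe set differed by 0.34 ± 0.19. PTGES2, a prostaglandin E synthase, differed by 0.75 ± 0.21 at this probe set and by -0.08 ± 0.14 at its other one, so the gene has no clear direction. The tubulin cofactor TBCC differed by 0.60 ± 0.19, and by 0.04 ± 0.28 at its other probe set. TLR7 is described above. The remaining 4 were LOC100736818 (0.70 ± 0.17), the recombination gene RAD51B (0.67 ± 0.20), C17H20orf24 (0.54 ± 0.17) and the aminopeptidase-like RNPEPL1 (0.53 ± 0.18). RAD51B differed by 0.29 without piglets 6 and 24, where control piglet 6 read 3.47 and the other controls 4.41 and 4.21. Without them RNPEPL1, ANGPTL2 and ROBO1 differed by 0.34, -0.30 and -0.46.

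**Figure D5:**
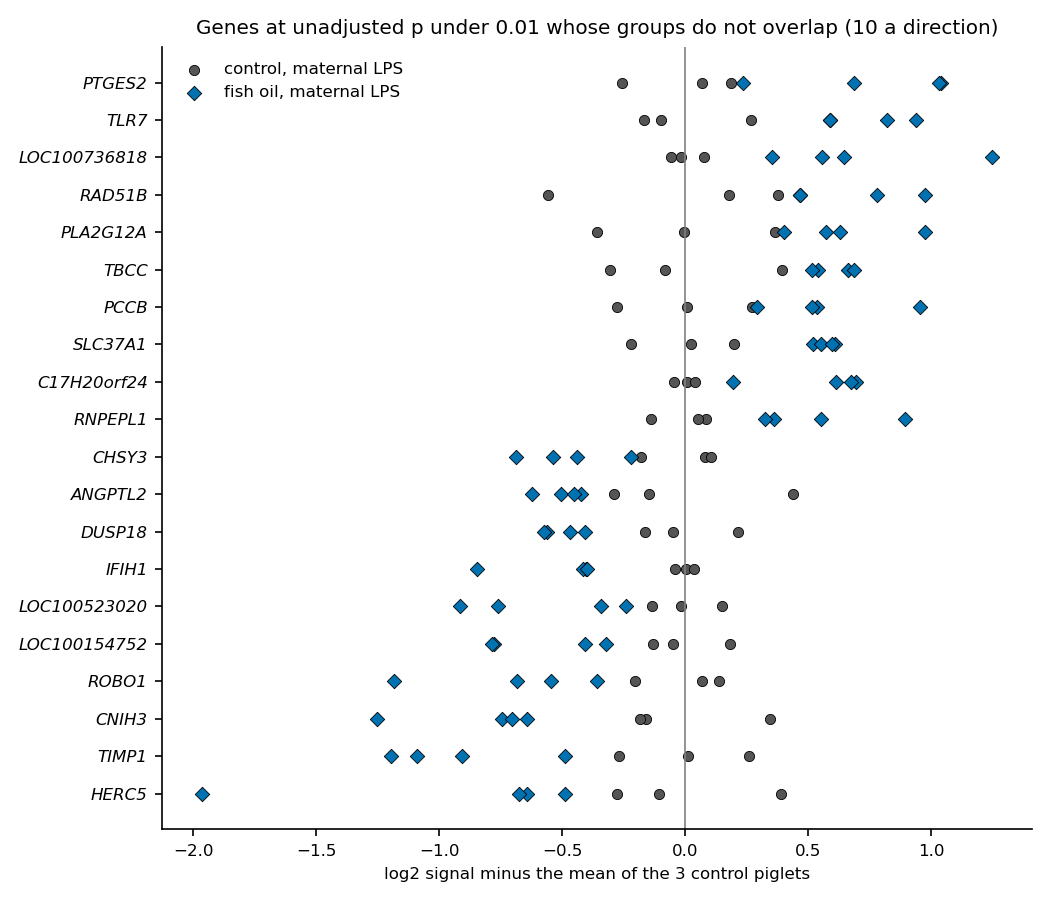
Log2 signal of each piglet minus the mean of the 3 control piglets (horizontal axis) for the 20 genes named at an unadjusted limma p under 0.01 without overlap. Circles are control and diamonds fish oil piglets after maternal LPS. The rule fixes that the groups are apart. Within the rows of HERC5 and of IFIH1 the leftmost diamond is piglet 20, and the diamonds of SLC37A1 lie close together.

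For the interaction between diet and maternal challenge, 10 genes were named in the same way. SBSPON, a secreted matrix protein, had the smallest p among them. After maternal LPS it read 4.49, 4.56 and 4.68 in controls and 4.82, 5.05, 5.19 and 5.11 with fish oil, and after maternal saline 5.30, 5.46 and 4.79 against 4.55, 4.56, 4.82 and 4.58. The interaction of SBSPON was 1.02 ± 0.24 (95% interval 0.53 to 1.52). PSTPIP2, an adaptor of the macrophage cytoskeleton, read 4.69, 5.32 and 4.74 against 4.69, 3.85, 4.11 and 4.01 after LPS, and 4.07, 4.61 and 3.68 against 4.66, 4.62, 5.06 and 4.94 after saline. Its groups were apart in opposite directions, narrowly so on both sides, with an interaction of -1.45 ± 0.43 (95% interval -2.36 to -0.54). PARP12, an interferon-induced ADP-ribosyltransferase outside the fixed list, read 7.18, 7.06 and 7.25 against 6.78, 6.87, 6.21 and 6.52 after LPS (-0.56 ± 0.20), with an interaction of -0.88 ± 0.29. LGALS8, a galectin that senses damaged vesicles, read 8.64, 8.53 and 8.63 against 7.66, 8.51, 8.08 and 7.83 (-0.58 ± 0.22), with an interaction of -0.94 ± 0.32. TIMP1 and LOC100154752 had interactions of -1.08 ± 0.35 and -1.04 ± 0.25. The mitochondrial citrate carrier SLC25A1, USF3, RAD51B and LOC100736818 had interactions of 0.79 ± 0.27, 0.76 ± 0.24, 0.85 ± 0.29 and 0.90 ± 0.24.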

How the data were processed

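Adrenal RNA was hybridised to 1-colour Affymetrix arrays with the WT PLUS kit, per the labels' protocols. The values deposited by the authors are log2 signals, base 2 inferred from their range of 0.263 to 13.5. Transcriptome Analysis Console 4.0 stands in the submitters' processing notes, and the summarization and normalization are not given in the sources used here. Values were used as deposited, with array medians of 4.38 to 4.52. Of 27558 probe sets, 6890 with a mean under 3.23 (the lowest 25%) were left out and 20668 tested. Genes are named from the array annotation where a probe set has 1 symbol (13157). For 7 of them the symbol and the gene identifier disagreed, and they were left unnamed. A gene in a list is represented by its brightest probe set.

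A limma 3.58.1 model (R 4.3.3) with a mean for each of the 6 groups, an intensity trend and 13 residual degrees of freedom gave both comparisons; tests were two-sided and p-values were adjusted by Benjamini-Hochberg over the 20668 probe sets. Replicates are piglets of different sows, and the number of arrays limits the precision. Lists are described by counts and medians, without a test. The workflow was run on simulated arrays with planted changes. Their noise was independent between probe sets, so the simulation does not cover outlying arrays or genes that vary together. The groups, 41 gene lists and rules were chosen with earlier results of these data known. Genes were named by size at an unadjusted p under 0.01 without overlap (up to 10 a direction for the diet and 5 for the interaction), by the 4 smallest p in each of 24 lists, or as 28 fixed genes. The other antiviral genes printed with values were chosen as members of the leading list. Alternatives were other filters, scalings, array weights, covariates for array spread and medulla markers, only the groups compared, and fits without piglets.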

Additional observations from a re-analysis of the deposited data

Results flagged for a closer look

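In the 4 fish oil piglets after maternal LPS, 163 results were examined for a piglet far from the other 3, and 9 had one. Chance gives about 1 in 20 such groups, so 9 of 163 is near that rate. Piglet 20 was far below the others for HERC5 (6.80), IFIH1 (8.12) and PARP14 (7.51), which all belong to the antiviral list. Piglet 24 was lowest for CNIH3 (3.06) and VCAN (3.17). Piglet 10 was highest for NDUFB8 (6.71) and PDIA4 (7.86). Piglet 19 was highest for SCG5 (4.63), a secretory granule protein, and lowest for C17H20orf24 (7.08).

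For 3 genes and 1 list, all fish oil piglets lay on one side of their controls after maternal LPS and on the other side after maternal saline. These 3 genes had been named for an unadjusted limma interaction p under 0.01 and for groups apart after LPS. Both traits were therefore fixed by the naming rule, and the share of all probe sets with this pattern is not given here. The effect after LPS minus that after saline was -1.45 for PSTPIP2, 0.85 for RAD51B and 0.79 for SLC25A1, with unadjusted limma interaction p of 0.00363, 0.00814 and 0.00886, none past the adjusted threshold. For the mean of the 25 interferon-stimulated genes it was -0.88, and this difference of the list was not tested.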

How the results depend on the processing

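Of 139 named genes, 123 kept the sign of their difference under 10 alternatives and 7 fits without 1 piglet, 16 changed it (10 of them only in fits without 1 piglet), and 0 passed the adjusted threshold, with a lowest adjusted limma p of 0.329. Without 1 piglet in turn, 0 to 1 probe sets passed the adjusted threshold, and 246 to 530 were higher at an unadjusted p under 0.05, the most without piglet 24. That count was 184 with only the compared groups and 564 with array spread as covariate. With a higher filter, which tests fewer probe sets, 187 were lower, and the interaction counts were 116 higher and 193 lower. Array weights gave 346 higher and 499 lower interactions, and array spread as covariate gave 357 higher. The cause of these shifts was not tested. Medians kept their sign for 16 of 24 lists under every alternative and changed it for 8. With the higher filter the nucleic acid sensing median was -0.40, taken only over the brighter members that passed it and not over all 8. Without piglets 6 and 24 that median was 0.0082, the LPS receptor median -0.29 and the cholesterol synthesis median -0.16. Without 1 piglet, medians ranged from 0.018 to 0.20 for nucleic acid sensing, -0.12 to 0.38 for cholesterol synthesis, -0.84 to 0.034 for medulla markers, -0.26 to 0.020 for glucocorticoid genes and 0.013 to 0.22 for PPAR targets. Signs reversed without piglets 6 and 24 for DBH (0.21), PNMT (0.42), MRC1 (0.17), NSDHL (-0.042) and TM7SF2 (-0.11). They reversed with array weights for DBH (0.10), PNMT (0.26) and HSD3B1 (-0.013), and with the medulla covariate for DBH (0.21) and PNMT (0.40). Without 1 piglet, differences ranged from -0.65 to 0.17 for CCL8, -0.25 to 0.033 for CD14, -0.69 to 0.19 for CXCL11, -0.94 to 0.048 for CXCL9, -0.84 to 0.16 for DBH and -0.40 to 0.19 for FADS1. They ranged from -0.28 to 0.10 for HSD11B1, -0.047 to 0.24 for HSD3B1, -0.21 to 0.11 for MRC1, -0.39 to 0.0016 for NFKBIA, -0.0031 to 0.55 for NSDHL and -0.84 to 0.30 for PNMT. For SCARB1 they ranged from -0.072 to 0.48, for TLR4 from -0.32 to 0.14 and for TNF from -0.21 to 0.19. No paired analysis was possible because the labels give no replicate numbers shared between groups.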

Other observations

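Other lists held single genes with larger values. Potassium and calcium channels had 8 of 15 genes higher and a median of 0.00, and the voltage-gated channels KCNA4 and KCND3 differed by 0.87 ± 0.41 (0.40 without piglet 20) and 0.39 ± 0.18 (0.07 without piglets 6 and 24). DLK1, a ligand of adrenal progenitor cells, differed by -0.90 (-1.67 without piglet 6, -0.28 without control piglet 17), while the list of adrenal growth, Hedgehog and WNT genes had 8 higher and 10 lower and a median of -0.02. CXCR2, the neutrophil receptor of CXCL8, differed by -0.50. Of 7 neutrophil markers 5 were lower, with a median of -0.03, but without piglet 19 the median was 0.07 with 5 higher. PNPLA2, the lipase that opens triglyceride stores, differed by 0.45 (0.26 without piglet 6). Endothelial markers were higher for 12 of 14 genes, with a median of 0.13. Without piglet 6 the median was 0.07 with 8 of 14 higher, and without piglet 10 it was 0.07 with 10 of 14 higher. Eicosanoid genes (5 higher, 7 lower, median -0.04), immediate early genes (6 higher, 4 lower, median 0.08), clock genes (5 higher, 8 lower, median -0.02) and cytosolic ribosomal proteins (20 higher, 9 lower, median 0.02) had medians within 0.1 of 0 over the 7 piglets. Without 1 piglet these medians ranged from -0.06 to 0.06, -0.17 to 0.19, -0.20 to 0.06 and -0.02 to 0.08 in the same order. They ranged from -0.10 to 0.17 for the channels and from -0.11 to 0.17 for the growth genes. These genes were chosen after their values were seen.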
